A study of Mus musculus with 66 samples.

Results

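The crypts of the mouse colon are renewed by stem cells at their base, and 8 genes tied to those cells and to Wnt signalling were followed here through chemical colitis: Lgr5, Ascl2, Axin2, Smoc2, Lrig1, Rnf43, Znrf3 and Sox9. The genes were taken by symbol from a table of 30452 genes, and all 8 were found. They are read from 38 transcript entries, of which 36 carried values. The values that follow are TPM, a length-adjusted share of a library's transcripts, summed over the transcripts of a gene.

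Bulk RNA was sequenced from 66 tissue sections of 19 C57Bl/6 mice bought at 6 weeks of age, with no genetic alteration named in the labels. Dextran sulfate sodium (DSS), a detergent-like polysaccharide that damages the colonic lining, was given at 3% for 6 days from day 0, so the day 3 mice were still on it. Uninjured mice were killed at day 0 (n = 4) and injured mice at days 3, 6, 9, 14 and 20 (n = 3 each). Mid-colon, rectum and anus came from all 19 mice, and a squamous neo-epithelium, which the labels list from day 9, came from the 9 mice of days 9, 14 and 20. The mucosal surface was cut from full-thickness tissue before RNA was prepared. Each section is a mixture of epithelium, stroma and immune cells, so fewer cells of a type and less RNA per cell cannot be told apart.

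Wnt ligands hold beta-catenin in an active state at the crypt base, where it drives transcription with TCF factors. R-spondins strengthen that signal by binding LGR receptors and so sparing Frizzled, the Wnt receptor, from removal. Lgr5 encodes such an R-spondin receptor and is the usual mark of the dividing crypt base stem cell. Ascl2 encodes a transcription factor of the same cells, and Smoc2 a secreted matrix-associated protein that is also used as a stem cell mark. Axin2, Rnf43 and Znrf3 are negative feedback genes of the pathway: AXIN2 is a scaffold of the complex that destroys beta-catenin, and RNF43 and ZNRF3 are ubiquitin ligases that remove Frizzled from the cell surface. Lrig1 encodes a membrane protein that restrains ErbB receptors and marks a broader set of crypt cells. Sox9 encodes a transcription factor of the crypt progenitor zone and is also made outside the gut, in hair follicle and cartilage.

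The genes lie at separate places in the genome (build mm10, GENCODE M21 gene bounds). Lgr5 is on chromosome 10 from 115450311 to 115587780, Ascl2 on chromosome 7 from 142966829 to 142969264, Smoc2 on chromosome 17 from 14279506 to 14404790 and Lrig1 on chromosome 6 from 94604529 to 94700158. The other 4 share chromosome 11: Znrf3 from 5276324 to 5444847, Rnf43 from 87662722 to 87735539, Axin2 from 108920349 to 108950783 and Sox9 from 112782224 to 112787760. Lgr5, Ascl2, Lrig1 and Znrf3 are on the minus strand. Smoc2 and Sox9 were read from 1 transcript each, whereas Rnf43 had 9, Lgr5 8, Axin2 7, Lrig1 5, Znrf3 3 and Ascl2 2 with values.

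The promoters of Axin2 and Ascl2 are shown because the levels of these 2 genes moved most closely together among all pairs of the 8 genes (Pearson r = 0.847 over the 38 mid-colon and rectum samples, which share mice and days of injury). Each sequence is the 250 bases before the RefSeq start site (GRCm38.p6, the assembly behind mm10), read on the strand of the gene. The first lies at chr11:108920099-108920348 on the plus strand and the second at chr7:142969265-142969514 on the minus strand.
Axin2: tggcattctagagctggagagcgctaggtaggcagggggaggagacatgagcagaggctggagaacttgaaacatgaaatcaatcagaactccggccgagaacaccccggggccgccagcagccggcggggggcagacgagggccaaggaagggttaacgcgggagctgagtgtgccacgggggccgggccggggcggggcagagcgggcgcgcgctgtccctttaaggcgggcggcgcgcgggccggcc
Ascl2: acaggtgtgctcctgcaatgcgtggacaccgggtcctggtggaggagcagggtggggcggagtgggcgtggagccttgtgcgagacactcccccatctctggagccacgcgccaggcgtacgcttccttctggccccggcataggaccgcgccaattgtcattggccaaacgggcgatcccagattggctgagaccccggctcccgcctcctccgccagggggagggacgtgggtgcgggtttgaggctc
Capitals would mark a TCF/LEF motif, searched on both strands and in any overlap. The motif was taken as CTTTGAA in its first form, as CTTTGAT in the next, as CTTTGTA in another and as CTTTGTT in the last, and neither window holds any of them. RefSeq windows matched 4 of the 8 genes, in 5 windows, and the windows of Lrig1 and Rnf43 held no such motif either. Of all 32851 promoter windows of this length, 14.8% held at least 1 match. Lgr5, Smoc2, Znrf3 and Sox9 had no window.

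The tissue labels were checked against marker genes. The summed TPM of 8 simple epithelium markers such as Epcam was 9161 to 13200 in mid-colon and 10960 to 13240 in rectum at day 0, and 1855 to 5210 in anus. The summed TPM of 8 squamous markers was 10010 to 16370 in anus, 14820 to 32710 in neo-epithelium and at most 124 in rectum at day 0. Between 11268 and 13788 genes reached 1 TPM in a sample, replicates of a group correlated at r from 0.960 to 0.993 on the log2 scale, and no library was a copy of another. Read depth cannot be had from TPM values, so a value of 0 is only a gene listed at 0.

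Before injury the 8 genes were low to moderate in the colon. In rectum at day 0 the mean was 10.5 ± 1.7 TPM for Sox9, 10.4 ± 0.93 for Lrig1, 8.85 ± 0.77 for Rnf43, 3.79 ± 0.13 for Smoc2, 2.06 ± 0.28 for Axin2, 1.28 ± 0.13 for Znrf3, 0.824 ± 0.14 for Ascl2 and 0.536 ± 0.067 for Lgr5 (SD, n = 4). Sox9 and Lrig1 did not differ beyond their spread, and the next steps in this order, from Rnf43 down to Smoc2, Axin2 and Znrf3, did not overlap between mice. Mid-colon gave 9.66 ± 3.2 TPM for Lrig1, 9.29 ± 2.9 for Rnf43, 6.30 ± 2.2 for Sox9, 2.97 ± 0.98 for Smoc2 and 0.341 ± 0.12 for Lgr5. Mouse 4 was the lowest of the 4 mid-colon samples for each of the 8 genes, with Lrig1 at 4.90 TPM against 10.9, 11.1 and 11.7 in the others. Between rectum and mid-colon at day 0, limma with Benjamini-Hochberg adjustment called 0 of the 6 genes tested, against 1.79% of all genes, and 3 of the 6 had an unadjusted p under 0.05.

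**Figure D1:**
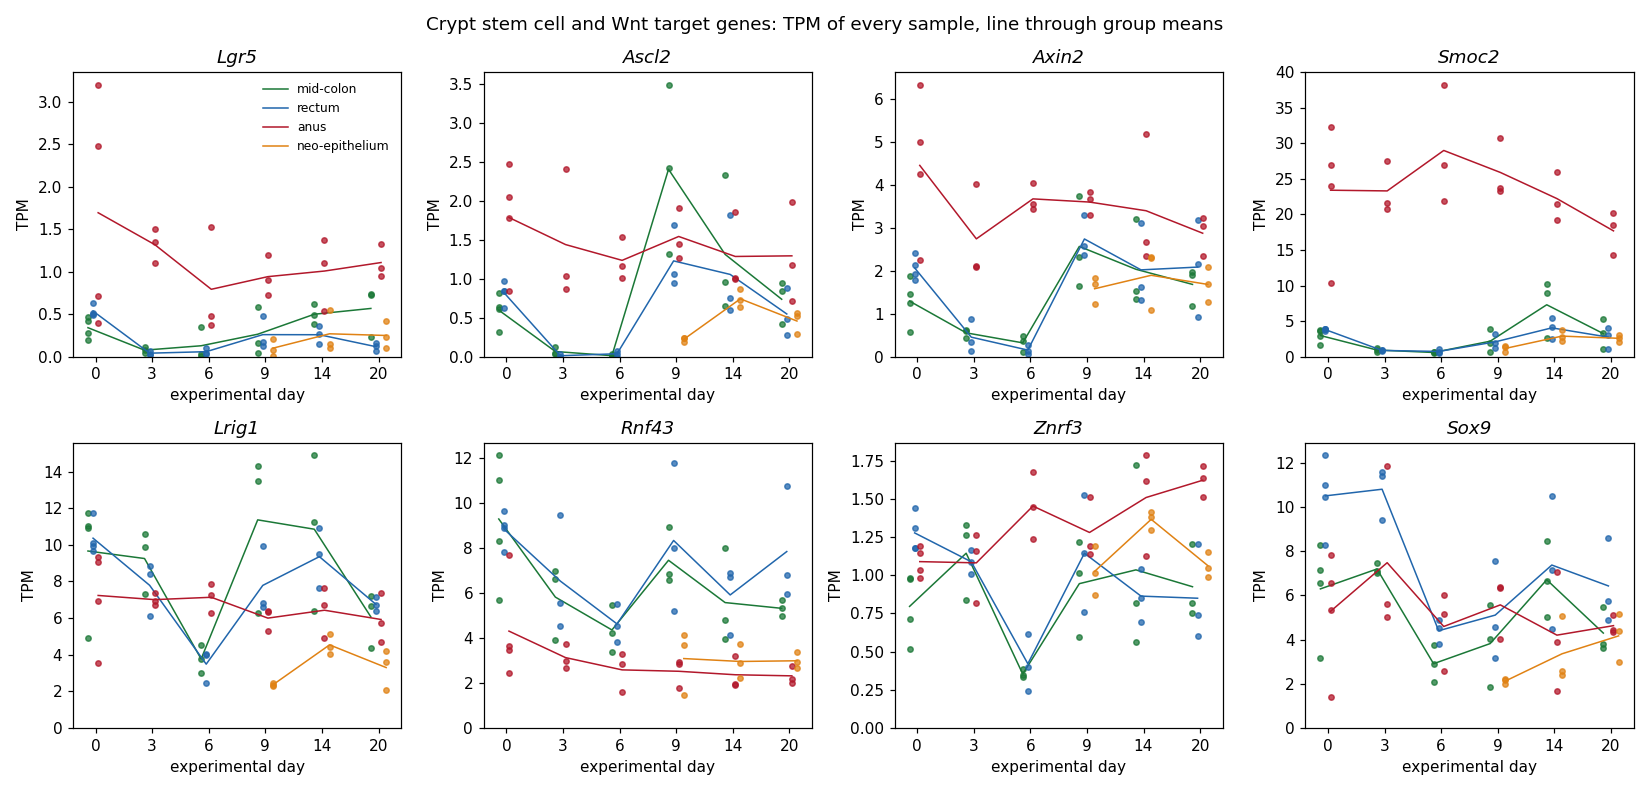
TPM (vertical axis, a separate scale for each gene) against experimental day (horizontal axis, evenly spaced) for the 8 genes. Points are single mice, lines join group means, and colours mark mid-colon, rectum, anus and neo-epithelium. Lgr5, Ascl2, Axin2 and Smoc2 lie near the bottom of their panels in both colon sections at days 3 and 6, Lrig1, Znrf3 and Sox9 dip at day 6, and Smoc2 in anus lies above 10 TPM in each of the 19 mice.

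The anus carried more Smoc2 and Axin2 and less Rnf43 and Sox9 than the rectum at day 0. Smoc2 was at 10.3, 27.0, 32.3 and 24.0 TPM in anus against 3.60 to 3.88 in rectum, so the groups were far apart (log2 change of 2.24 on TPM + 1 in limma, SE 0.30, Benjamini-Hochberg adjusted p = 0.000146). Axin2 was at 2.24, 6.31, 5.00 and 4.25 TPM in anus against 1.78 to 2.42 in rectum, where mouse 1 of the anus fell inside the rectal range (0.77, SE 0.24, adjusted p = 0.0179). Rnf43 was at 2.43 to 7.67 TPM in anus and 7.80 to 9.66 in rectum (-0.98, SE 0.26, adjusted p = 0.00845). Sox9 was at 1.38, 5.35, 6.57 and 7.83 TPM in anus and 8.28 to 12.3 in rectum (-1.02, SE 0.37, adjusted p = 0.0341).

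These 4 calls of 6 genes tested compare with 60.3% of all genes called between anus and rectum. Lgr5 and Ascl2 were under the filter of 1 TPM in 4 samples in this comparison, with means of 1.69 ± 1.4 and 1.79 ± 0.69 TPM in anus. Lgr5 in anus spread from 0.394 TPM in mouse 1 and 0.713 in mouse 2 to 2.47 and 3.19 in mice 3 and 4. Mouse 1 was the lowest of the anal samples for each of the 8 genes. The anus also differed in makeup: 7 of 8 fibroblast markers were higher than in rectum and none lower (summed TPM 2099 to 2877 against 654 to 819), 5 of 5 tested skeletal muscle markers and 3 of 3 tested hair follicle markers were higher, and all 8 simple epithelium markers were lower. The part of these cell types in the levels of the 8 genes was not tested.
Without rectum mouse 3 there were 2 calls in place of 4. The Sox9 call was lost without rectum mouse 1, 2 or 3 or anus mouse 2 (adjusted p 0.0557 to 0.0890) and with no filter (0.0738), and the Axin2 call without rectum mouse 3 (0.0538) and in protein-coding transcripts alone (log2 change 0.07, adjusted p = 0.681). Rnf43 was not called from its most abundant transcript (log2 change -0.27, adjusted p = 0.247).

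In the injured rectum 4 genes were low by day 3, while DSS was still being given: Lgr5, Ascl2, Axin2 and Smoc2. Lgr5 was at 0.0238, 0.0271 and 0.0711 TPM at day 3 and at 0.102, 0.0287 and 0.0440 at day 6, against 0.507, 0.511, 0.490 and 0.636 at day 0. Ascl2 was listed at 0 in 2 of the 3 mice at day 3 and at 0.0353 TPM in the third, and at 0.0371, 0 and 0.0743 at day 6, against 0.629 to 0.975 at day 0. Neither gene overlapped its day 0 range at either day, and the day 3 means were 7.59% and 1.43% of those at day 0.

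Lgr5 and Ascl2 did not pass the filter on low values in rectum, so they were not part of the main test there. An exact two-sided permutation test of the mean TPM gave p = 0.0571 for each of them at days 3 and 6, which is the smallest value that 3 mice against 4 allow, and 0.125 after adjustment over 24 such comparisons. In the fit with no filter the log2 change of Lgr5 was -0.56 at day 3 and -0.54 at day 6 (limma, adjusted p = 0.00388 and 0.00192). That of Ascl2 was -0.85 and -0.81 (adjusted p = 0.00352 and 0.00164).

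Axin2 and Smoc2 fell at the same days and passed the main test. Axin2, the feedback scaffold, was at 0.868, 0.142 and 0.350 TPM at day 3 and at 0.272, 0.121 and 0.0647 at day 6, against 2.12, 2.42, 1.78 and 1.93 at day 0. The log2 change was -1.10 at day 3 (SE 0.19, adjusted p = 0.00965) and -1.41 at day 6 (SE 0.14, adjusted p = 0.000334). Smoc2 was at 0.887, 0.824 and 0.911 TPM at day 3 and at 0.670, 0.501 and 1.02 at day 6, against 3.85, 3.86, 3.88 and 3.60. The log2 change was -1.36 at day 3 (SE 0.12, adjusted p = 0.000370) and -1.48 at day 6 (SE 0.14, adjusted p = 0.000261). All injured mice lay below all day 0 mice for both genes. These were the 2 calls among 6 genes tested at day 3, where 6.62% of all genes were called. Both were under 1 TPM in each day 3 mouse, so they passed the filter through the day 0 mice, in which they were high. At day 6 Axin2 was again under 1 TPM in each mouse, and Smoc2 in all but the mouse at 1.02 TPM.

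The other 4 genes were not called at day 3 and fell by day 6. Lrig1 was at 8.39, 6.14 and 8.83 TPM at day 3 and then at 4.01, 4.00 and 2.43 at day 6, against 9.68 to 11.7 at day 0, so its day 3 mice already lay below the uninjured ones. Sox9 was at 11.6, 9.42 and 11.4 TPM at day 3, inside its day 0 range of 8.28 to 12.3, and at 3.81, 4.87 and 4.53 at day 6. Znrf3 was at 1.01, 1.09 and 1.17 TPM at day 3 and 0.399, 0.617 and 0.244 at day 6, against 1.18 to 1.44 at day 0, again with no overlap at either day. At day 6 it passed the filter of 1 TPM through the day 0 mice. Rnf43, the other ligase gene, was spread at 4.52, 9.48 and 5.57 TPM at day 3 and was at 4.55, 5.49 and 3.83 at day 6, against 7.80 to 9.66 at day 0.

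At day 6 the 6 genes tested were all lower than at day 0, where 48.7% of all genes were called and the median change of all genes was -0.27 (-0.06 with TMM scaling, a trimmed mean that sets most genes level between samples). The log2 change was -1.36 for Lrig1 (SE 0.16, adjusted p = 0.000604), -1.08 for Sox9 (SE 0.15, adjusted p = 0.00119), -0.81 for Rnf43 (SE 0.14, adjusted p = 0.00257) and -0.69 for Znrf3 (SE 0.15, adjusted p = 0.00633). At day 3 the same 4 genes had changes from -0.44 to 0.04 and adjusted p from 0.152 to 0.903. The comparisons of different days share the 4 mice of day 0. Set against day 3 directly, with other mice, Sox9 (-1.13, SE 0.16, adjusted p = 0.00449) and Lrig1 (-0.98, SE 0.22, adjusted p = 0.0160) were lower at day 6, and these were the 2 calls of 4 genes tested, with 27.4% of all genes called. The Lrig1 call from day 3 to day 6 was lost without mouse 5 or mouse 7 (adjusted p 0.0562 to 0.0608) and with no filter (0.0529). Rnf43 at day 6 was not called from its most abundant transcript (log2 change -0.40, adjusted p = 0.176), and in protein-coding transcripts it was also called at day 3 (-0.60, adjusted p = 0.0177).

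**Figure D2:**
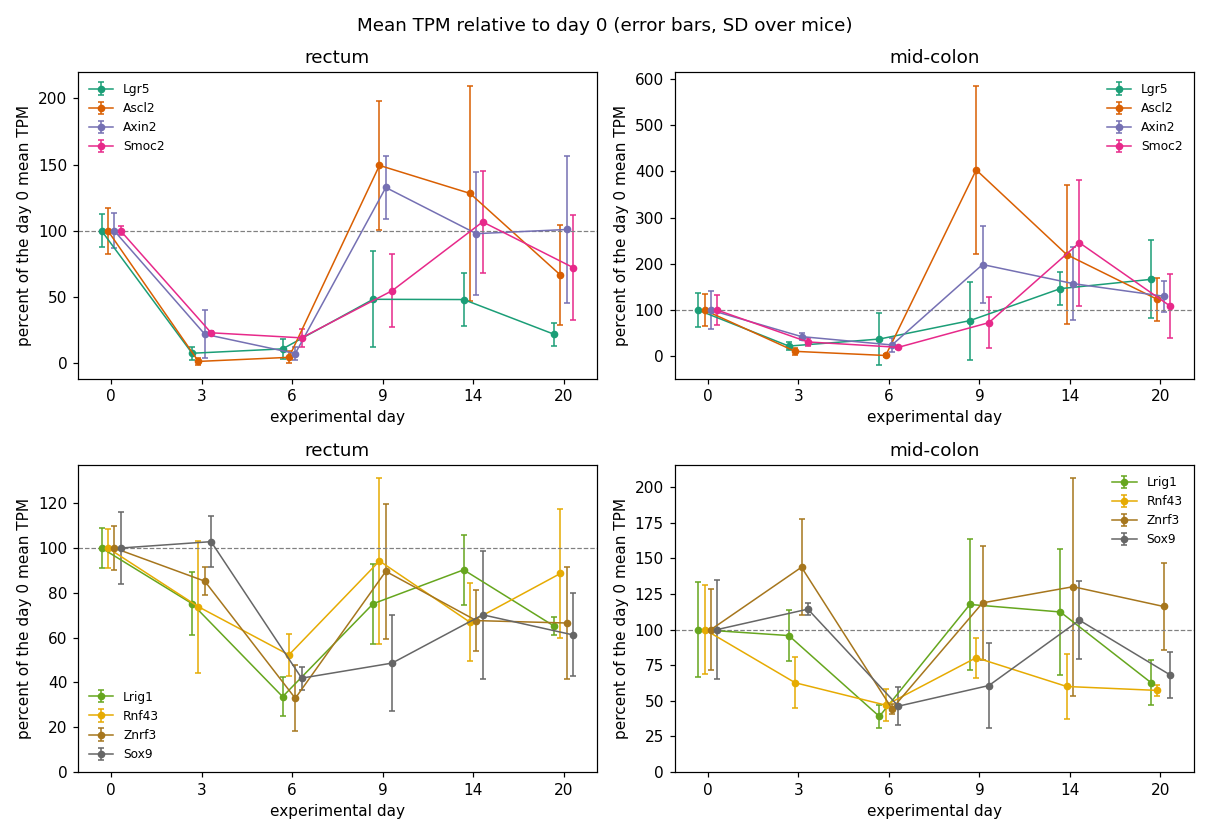
Mean TPM as a percentage of the day 0 mean of the same section (vertical axis, scale differs by panel) against experimental day, with SD over mice as error bars (4 mice at day 0, 3 at each later day). The upper panels show Lgr5, Ascl2, Axin2 and Smoc2 and the lower panels Lrig1, Rnf43, Znrf3 and Sox9; the rectal means of the first 4 were at 1.43% to 23.0% of day 0 at day 3, and those of the other 4 at 73.8% to 103%.

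By day 9, after the end of DSS, Ascl2 was at 0.942, 1.06 and 1.69 TPM and Axin2 at 2.57, 2.35 and 3.29, overlapping the day 0 mice or above them. Lgr5 was at 0.168, 0.127 and 0.481 TPM at day 9, 0.146, 0.269 and 0.358 at day 14 and 0.126, 0.160 and 0.0661 at day 20, so that each of the 9 mice lay below the lowest day 0 mouse. The Lgr5 mean was 48.3%, 48.1% and 21.9% of day 0 at those days. Its exact permutation p was 0.0571 at each, the smallest possible value, and the fit with no filter gave adjusted p = 0.0664, 0.0691 and 0.0380. Transcripts annotated as protein-coding gave an Lgr5 mean of 0.0733 ± 0.053 TPM at day 9, against 0.485 ± 0.050 at day 0.

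From day 6 to day 9 Axin2 rose by a log2 change of 1.69 (SE 0.19, adjusted p = 0.000747) and Lrig1 by 0.97 (SE 0.25, adjusted p = 0.0169), which were the 2 calls of 5 genes tested, with 37.9% of all genes called. Axin2 was under 1 TPM in each day 6 mouse, so it passed the filter through the day 9 mice, in which it was high. Smoc2 missed the threshold with a change of 0.79 (adjusted p = 0.0543), and Sox9 had a change of 0.12 (adjusted p = 0.768). The Lrig1 rise was lost without mouse 13 (adjusted p = 0.0646) and with TMM scaling (0.62, adjusted p = 0.0561). That scaling moved the median change of all genes between these days from 0.37 to 0.01. Without mouse 11 of day 9 the calls between neighbouring days in rectum numbered 7 in place of 4. The filter then asked for fewer samples, so genes not tested before could enter. Among the genes already tested, Smoc2 from day 6 to day 9 gained a call (1.02, limma adjusted p = 0.0212).

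Against day 0, Smoc2 and Sox9 were still lower at day 9. Sox9 was at 3.18, 4.57 and 7.58 TPM (log2 change -0.97, SE 0.25, adjusted p = 0.00957) and Smoc2 at 1.15, 1.88 and 3.21 TPM (-0.69, SE 0.22, adjusted p = 0.0256), with no overlap with day 0. They were the 2 calls of 6 genes tested, with 53.5% of all genes called. The Smoc2 call was lost without mouse 1, 2, 3, 11 or 12 (adjusted p 0.0554 to 0.0685), with no filter (0.0570), and with scaling to simple epithelium markers (-0.36, adjusted p = 0.181), under which Axin2 was called as higher (0.61, adjusted p = 0.00867). The epithelial scaling moved the median change of all genes from 0.13 to 0.46. With TMM scaling, where that median was -0.04, Lrig1 was called as lower (-0.57, limma adjusted p = 0.0054). Protein-coding transcripts of Axin2 averaged 1.80 ± 0.63 TPM at day 9 and 1.70 ± 0.23 at day 0 (SD).
At day 14 no gene of the 6 tested was called, with 15.8% of all genes called and 1 of the 6, Rnf43, at an unadjusted p under 0.05. From day 9 to day 14 limma called none of 7 genes tested, none had an unadjusted p under 0.05, and 8.04% of all genes were called. At day 20 Lrig1 was at 7.16, 6.71 and 6.36 TPM, below each day 0 mouse (-0.55, SE 0.13, adjusted p = 0.0407). This was the 1 call of 6 genes, with 7.68% of all genes called, and it was lost when any day 0 mouse or mouse 17 or 18 was left out (adjusted p 0.0502 to 0.131), with no filter (0.0704) and with epithelial scaling (0.0908).

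Other cell markers changed along with the 8 genes in the rectum. The summed TPM of 8 proliferation markers such as Mki67 was 195 to 233 at day 0, 82.7 to 95.7 at day 3, 101 to 212 at day 6 and 820 to 936 at day 9. Of these 8 markers 7 fell at day 3, 5 fell at day 6 and all 8 rose at day 9. Of 8 simple epithelium markers, 1 rose and none fell at day 3, 1 fell at day 6, and 3 fell and 1 rose at day 9. Of 8 fibroblast markers 4 fell at day 3, 2 rose at day 6 and 4 rose at day 9. Leukocyte markers summed to 617 to 758 TPM at day 0, 2053 to 6121 at day 6 and 11910 to 13830 at day 9, and squamous markers to 13.0 to 124 TPM at day 0 and 107 to 756 at day 9. The part of proliferation, of fibroblasts, of leukocytes or of adjoining squamous tissue in the values of the 8 genes was not tested.

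**Figure D3:**
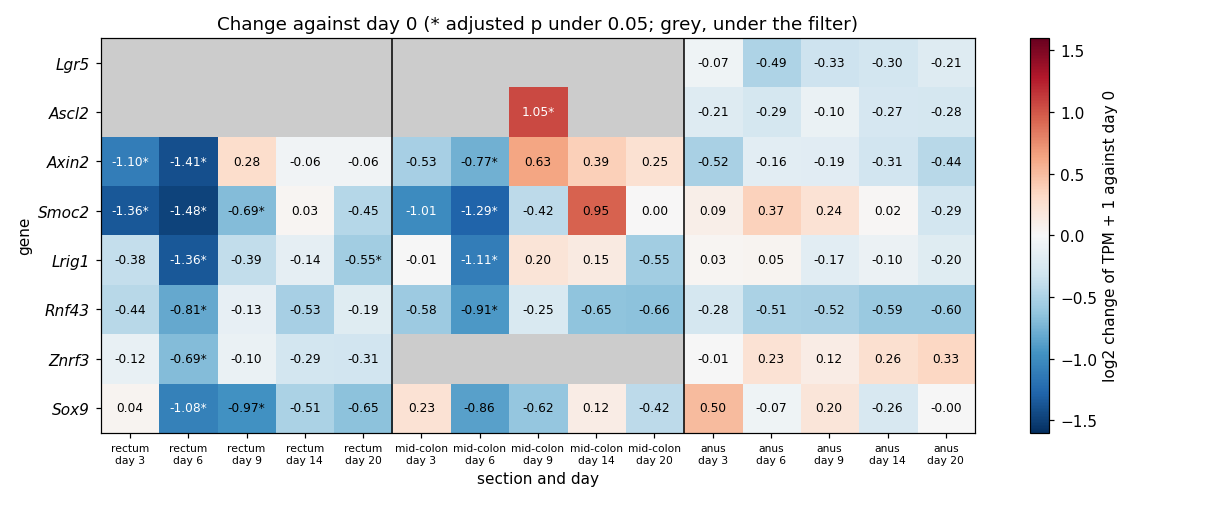
The log2 change of TPM + 1 against day 0 (colour and printed value) for each gene (rows) in rectum, mid-colon and anus at days 3, 6, 9, 14 and 20 (columns). Asterisks mark an adjusted p under 0.05 and grey cells were under the filter on low values; all asterisks but that of Ascl2 in mid-colon at day 9 stand on negative values, and none is in the anus.

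The mid-colon showed a fall by day 6 and, for Ascl2, a rebound above the uninjured level at day 9. Ascl2 was at 0.617, 0.633, 0.824 and 0.318 TPM at day 0, at 0.0415, 0.0336 and 0.123 at day 3 and listed at 0, 0 and 0.0379 at day 6. At day 9 it was at 1.31, 3.49 and 2.42 TPM, above all day 0 mice, with a mean 4.03 times that of day 0 (log2 change of 1.05 on TPM + 1, SE 0.24, adjusted p = 0.00520). Relative to day 6 the change was 1.70 (SE 0.24, adjusted p = 0.000991). Ascl2 was under 1 TPM in each mouse of days 0 and 6, so it passed the filter through the 3 day 9 mice in which it was high, and it was not tested against day 0 at the other days. By day 20 Ascl2 was at 0.845, 0.943 and 0.426 TPM, overlapping day 0.

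Axin2 in mid-colon was at 0.585 to 1.87 TPM at day 0, 0.445 to 0.615 at day 3, 0.110 to 0.485 at day 6 and 1.64, 3.73 and 2.33 at day 9. It fell by day 6 (-0.77, SE 0.22, adjusted p = 0.0445) and rose from day 6 to day 9 (1.40, SE 0.24, adjusted p = 0.00244). Axin2 was under 1 TPM in each day 6 mouse, so it passed the filter through day 0 mice in the first test and day 9 mice in the second. Smoc2 was at 2.95, 3.75, 3.58 and 1.59 TPM at day 0, 0.642, 0.970 and 1.18 at day 3 and 0.474, 0.662 and 0.625 at day 6 (-1.29, SE 0.23, adjusted p = 0.00758). The day 3 mice also lay below the day 0 mice, but that change was not called (-1.01, SE 0.24, adjusted p = 0.145), except with TMM scaling (-1.10, adjusted p = 0.0256) or epithelial scaling (-1.05, adjusted p = 0.0265). Smoc2 reached 2.68, 8.98 and 10.2 TPM at day 14, with a change of 0.95 against day 0 (SE 0.39, adjusted p = 0.212). It was called with epithelial scaling (1.29, adjusted p = 0.0321) and without mouse 14 (1.45, adjusted p = 0.0135). Axin2 at day 9 was likewise not called against day 0 (0.63, adjusted p = 0.0763), but was with epithelial scaling (1.02, adjusted p = 0.00137), in the fit over all 66 samples (0.0352) and without mouse 11 (0.82, adjusted p = 0.0424). Epithelial scaling moved the median change of all genes from 0.09 to 0.49 at day 9 and from -0.03 to 0.31 at day 14. Protein-coding transcripts of Axin2 averaged 1.20 ± 0.057 TPM at day 9 against 1.08 ± 0.52 at day 0 (SD).

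Lrig1 fell to 4.54, 3.74 and 3.02 TPM at day 6 in mid-colon (-1.11, SE 0.28, adjusted p = 0.0296) after 7.31, 10.6 and 9.87 at day 3, and was at 6.29, 14.3 and 13.5 at day 9. Rnf43 fell to 5.47, 3.37 and 4.22 TPM at day 6 from 5.69 to 12.1 at day 0 (-0.91, SE 0.26, adjusted p = 0.0422). Sox9 was at 3.77, 2.06 and 2.89 TPM at day 6, and its change against day 0 was not called (-0.86, SE 0.29, adjusted p = 0.0689). Znrf3, under the filter in mid-colon, was at 0.345, 0.383 and 0.331 TPM at day 6, below the 0.514 to 0.980 of day 0 (exact permutation p = 0.0571, the smallest possible). Lgr5 was at 0.0458 to 0.108 TPM at day 3, at 0.0119, 0.0266 and 0.345 at day 6, at 0.0389, 0.165 and 0.587 at day 9, and at 0.387 to 0.625 at day 14 and 0.237 to 0.740 at day 20, so that it again reached or passed its day 0 range of 0.200 to 0.469. The high day 6 value, of mouse 10, was 0.0131 TPM in protein-coding transcripts, whose mean was 0.0172 ± 0.0082 at day 6 against 0.306 ± 0.12 at day 0.

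Axin2, Smoc2, Lrig1 and Rnf43 were thus the 4 calls among 5 genes tested at day 6 in mid-colon, with 14.9% of all genes called. At day 9 the 1 call was Ascl2, of 6 genes tested, with 43.4% of all genes called. None was called at days 3, 14 and 20, with 0.375%, 4.36% and 1.56% of all genes called and 2, 1 and 1 of 5 genes at an unadjusted p under 0.05. Between days, 2 of 3 genes tested were lower at day 6 than at day 3, Lrig1 (-1.10, adjusted p = 0.0119) and Sox9 (-1.09, adjusted p = 0.0118), with 31.8% of all genes called. From day 6 to day 9, 4 of 5 rose, Ascl2, Axin2, Lrig1 (1.31, adjusted p = 0.00900) and Rnf43 (0.67, adjusted p = 0.0343), with 40.5% of all genes called. From day 9 to day 14 none of 7 was called, 1 had an unadjusted p under 0.05, and 19.7% of all genes were called.

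Mouse 4, the low day 0 sample, bears on the mid-colon counts: without it 10 calls were made over the 5 days in place of 5, and without mouse 1, 2, 3, 9 or 10 there were 2, and without mouse 8 there were 3. Smoc2 at day 6 passed the filter through the day 0 mice and Ascl2 at day 9 through the day 9 mice, the groups in which each was high. Their calls stood in each fit with a mouse left out. Those of Axin2, Lrig1 and Rnf43 at day 6 were lost in most, with adjusted p up to 0.185. Lrig1 stayed called in 2 of 7 such fits, Rnf43 in 1 of 7 and Axin2 in 1 of the 4 that tested it. With no filter the same 3 calls were lost (adjusted p 0.0820 to 0.0990). The Rnf43 call was also lost from the most abundant transcript (0.122) and in protein-coding transcripts (0.0573), and the Axin2 call with epithelial scaling (0.0673). Of the changes between days, those of Lrig1 and Sox9 from day 3 to day 6 were lost without mouse 6 (0.0561 and 0.0511) and that of Rnf43 from day 6 to day 9 without mouse 9, 10, 12 or 13 (0.0610 to 0.133). The Rnf43 rise was also lost with TMM scaling (0.41, adjusted p = 0.0898), with no filter (0.0748), in the fit over all 66 samples (0.0602), from the most abundant transcript (0.0603) and in protein-coding transcripts (0.32, adjusted p = 0.245). Proliferation markers in mid-colon summed to 125 to 196 TPM at day 0, 97.9 to 153 at day 6 and 834 to 1350 at day 9, when all 8 rose. Their part in the rise of Ascl2 and Axin2 was not tested.

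The response of the rectum was compared with that of the mid-colon as an interaction. No gene was called at days 3, 6, 9, 14 or 20, against 0%, 0%, 6.55%, 0.00755% and 0.00756% of all genes. Between 6 and 7 of the genes were tested at each day, and those at an unadjusted p under 0.05 were Axin2 at day 6 (difference -0.64, SE 0.27, adjusted p = 0.796) and Ascl2 at day 9 (-0.77, SE 0.30, adjusted p = 0.164). Ascl2 was tested at day 9 only, where it passed the filter through the injured samples, in which it was high. The sign of its difference stands for a smaller mean change in rectum than in mid-colon, which was not called. The Ascl2 difference passed with TMM scaling (-0.86, adjusted p = 0.0473) and without mid-colon mouse 11 (-1.02, adjusted p = 0.0329). A p above the threshold does not show that both sections responded alike.

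In the anus no gene was called at any day, although all 8 passed the filter there. The share of all genes called was 0.044%, 15%, 5.09%, 4.27% and 1.46% at days 3, 6, 9, 14 and 20, and none of the 8 genes had an unadjusted p under 0.05 in limma at any of these days. Smoc2 stayed high, at 26.9, 21.9 and 38.2 TPM at day 6, when it was at or near 1 TPM or less in both colon sections. Axin2 was at 4.04, 3.55 and 3.43 TPM at day 6, against 2.24 to 6.31 at day 0. Lgr5 was at 0.478, 0.370 and 1.53 TPM at day 6 (log2 change -0.49, SE 0.43). Simple epithelium markers in anus fell from a summed 1855 to 5210 TPM at day 0 to 172 to 348 at day 6, with 7 of 8 called, and all 8 proliferation markers rose, while the 8 genes kept means of 46.8% to 133% of day 0. In protein-coding transcripts 1 call appeared, Rnf43 at day 6 (-0.84, adjusted p = 0.0447).

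The squamous neo-epithelium carried less Lrig1, Rnf43 and Sox9 than the rectum of the same 9 mice, with neo-epithelium the lower in 9 of 9 mice for each. Lrig1 ranged from 2.09 to 5.13 TPM (median 3.59) in neo-epithelium and from 6.36 to 10.9 (median 7.16) in rectum (log2 change -1.05, SE 0.12, adjusted p = 3.84e-06). Rnf43 ranged from 1.45 to 4.11 TPM (median 2.92) against 4.14 to 11.8 (median 6.81), a change of -1.04 (SE 0.18, adjusted p = 0.000148). Sox9 ranged from 1.99 to 5.16 TPM (median 2.58) against 3.18 to 10.5 (median 5.76), with overlap between mice (-0.78, SE 0.18, adjusted p = 0.00187). These were 3 of 6 genes tested, with 42.9% of all genes called. The changes of Axin2 (-0.24), Smoc2 (-0.27) and Znrf3 (0.15) were not called (adjusted p from 0.234 to 0.262). In this comparison 8 of 8 squamous and 6 of 8 fibroblast markers were higher in neo-epithelium and 7 of 8 simple epithelium markers lower, and their part in the lower Lrig1, Rnf43 and Sox9 was not tested.

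Against the anus of the same mice the neo-epithelium was lower for Smoc2, Axin2, Lrig1 and Znrf3. Smoc2 ranged from 0.702 to 3.70 TPM (median 2.26) in neo-epithelium and from 14.3 to 30.8 (median 21.5) in anus, lower in 9 of 9 mice (-2.87, SE 0.17, adjusted p = 4.77e-10). Axin2 ranged from 1.08 to 2.31 TPM (median 1.69) against 2.34 to 5.18 (median 3.23), also lower in 9 of 9 (-0.65, SE 0.13, adjusted p = 0.000501). Lrig1 was lower in 9 of 9 (-0.72, SE 0.13, adjusted p = 0.000152), and Znrf3 in 7 of 9, by a small change (-0.20, SE 0.08, adjusted p = 0.0382). These were 4 of 6 genes tested, with 59.8% of all genes called. Rnf43 went the other way, higher in neo-epithelium in 8 of 9 mice, but was not called (0.22, limma adjusted p = 0.183). It was called without the neo-epithelium of mouse 12 (0.32, adjusted p = 0.0260). Lgr5 and Ascl2, under the filter here, were lower than in anus in 9 of 9 mice, with means of 0.206 ± 0.17 against 1.02 ± 0.27 TPM and 0.475 ± 0.24 against 1.38 ± 0.46 (SD, n = 9).

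With the mouse as a replicate block the Znrf3 difference from anus was lost (adjusted p = 0.0919) and Sox9 was called (-0.45, adjusted p = 0.0496 in place of 0.0655). The Axin2 difference was smaller in protein-coding transcripts (-0.28, adjusted p = 0.0720). The Znrf3 call was also lost without any one of 12 single samples, with adjusted p up to 0.0727: the neo-epithelium of mice 12, 13, 14, 17, 18 and 19 and the anus of mice 13, 14, 16, 17, 18 and 19. The neo-epithelium differed from anus in other tissue too: 5 of 5 tested skeletal muscle markers and 5 of 6 tested hair follicle markers were lower. The skeletal muscle markers summed to 2.69 to 12.4 TPM in neo-epithelium, with Myh4 listed at 0, and to 2315 to 9133 in anus of the same days. In addition 4 of 8 fibroblast markers were lower, and all 8 simple epithelium markers were higher. Their part in the differences of the 8 genes was not tested.

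**Figure D4:**
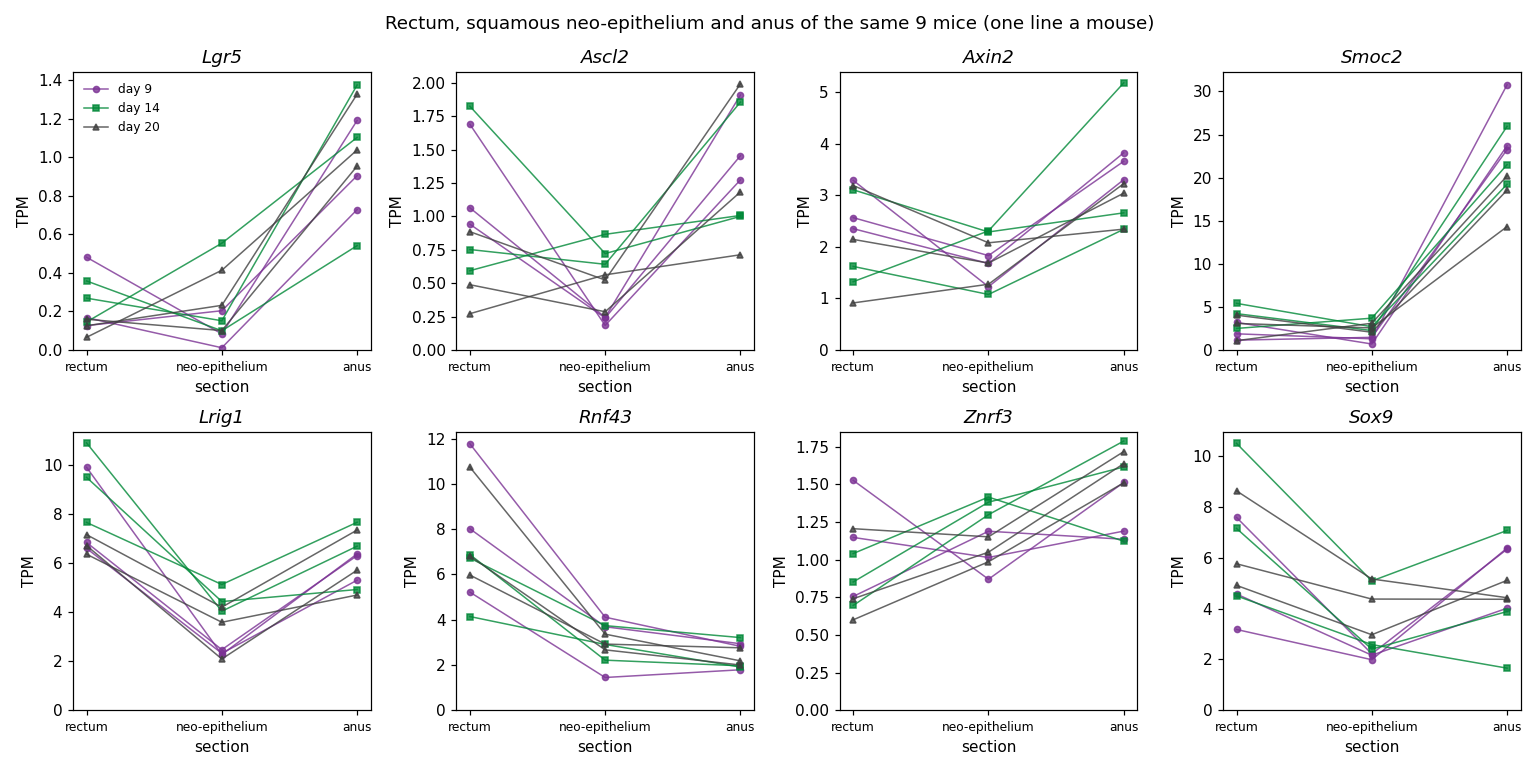
TPM (vertical axis, a separate scale for each gene) in rectum, squamous neo-epithelium and anus (horizontal axis) of the 9 mice killed at days 9, 14 and 20. Each line is 1 mouse and symbols mark the day; Lrig1, Rnf43 and Sox9 drop from rectum to neo-epithelium in 9 of 9 mice, and Smoc2 and Axin2 climb from neo-epithelium to anus in 9 of 9.

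Within the neo-epithelium Smoc2 and Sox9 were higher at day 20 than at day 9. Smoc2 was at 1.47, 1.30 and 0.702 TPM at day 9, 3.70, 2.26 and 2.71 at day 14 and 2.57, 2.07 and 3.11 at day 20 (0.74, SE 0.22, adjusted p = 0.0480 for day 20 against day 9). Sox9 was at 1.99, 2.17 and 2.22 TPM at day 9 and 4.37, 2.97 and 5.16 at day 20 (0.70, SE 0.21, adjusted p = 0.0476). These were 2 of 6 genes tested, with 26.2% of all genes called, and both calls were lost without mouse 11, 12, 13, 17 or 19 (adjusted p 0.0790 to 0.176) and with no filter (0.0800 and 0.0905). Over the same days all 7 tested colonocyte markers and 6 of 8 simple epithelium markers rose in this section, with the colonocyte sum at 32.7 to 270 TPM at day 9 and 2098 to 4339 at day 20, and 7 of 8 fibroblast and 7 of 8 proliferation markers fell. The part of these cells in the Smoc2 and Sox9 values was not tested. Ascl2 was at 0.240, 0.245 and 0.184 TPM at day 9, below each of the 3 rectal samples of that day. It was at 0.642 to 0.866 TPM at day 14 and 0.287 to 0.563 at day 20.

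The sum over transcripts hides a difference for Axin2. Its most abundant entry, Axin2-203, is annotated as a processed transcript without a coding sequence and made up 46.8% of the Axin2 total over all samples, whereas the coding Axin2-201 made up 35.4%. In rectum at day 0 Axin2-201 was at 1.24 ± 0.35 TPM and Axin2-203 at 0.363 ± 0.49 (SD, n = 4). In anus at day 0 Axin2-201 was at 1.27 ± 0.43 TPM, and Axin2-203 was at 2.39 ± 1.2. Both entries were low in rectum at day 6, at 0.0825 ± 0.098 and 0.0213 ± 0.037 TPM, and both were back at day 9, at 1.63 ± 0.72 and 0.940 ± 0.21 (SD, n = 3). In mid-colon Axin2-201 was at 0.680 ± 0.46 TPM at day 0 and 0.975 ± 0.15 at day 9. Axin2-203 was there at 0.21 ± 0.16 and 1.36 ± 1.1 TPM on the same days. Of Rnf43, 69.9% came from coding transcripts, of Lgr5 84.6%, and of the other 5 genes at least 99.4%.

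**Figure D5:**
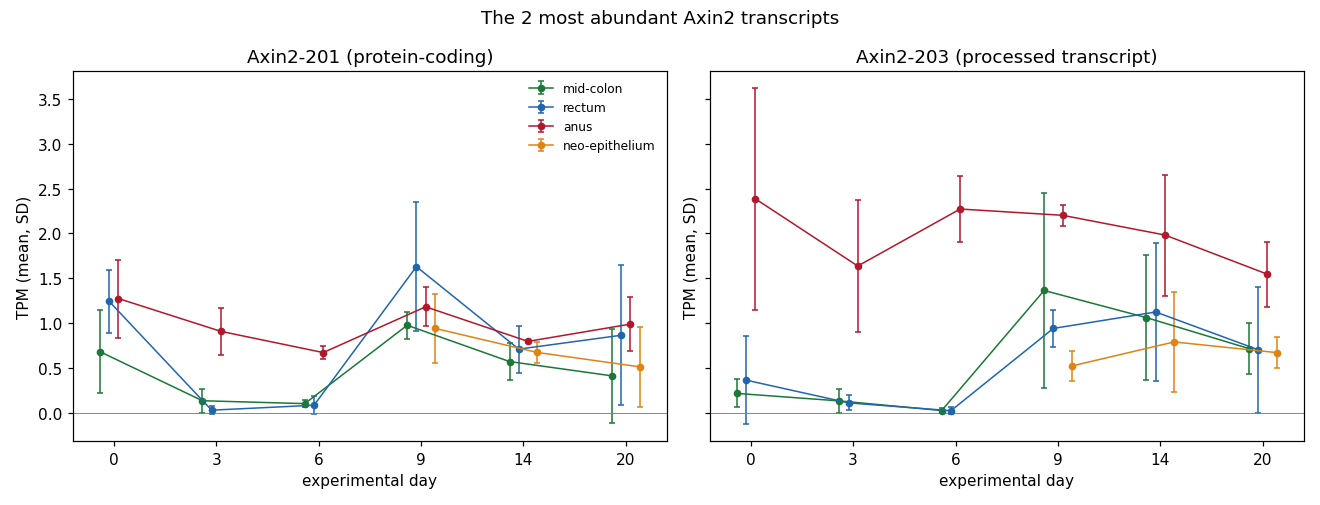
Mean TPM with SD over mice (vertical axis, shared) of Axin2-201 and Axin2-203 against experimental day in mid-colon, rectum, anus and neo-epithelium (colours). Axin2-201 lies at similar levels in rectum and anus at day 0, and Axin2-203 lies higher in anus than in the other sections at each day.

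Likeness of pattern was described over the 38 mid-colon and rectum samples, as the Pearson correlation of log2(TPM + 1) with 11119 genes of at least 2 TPM on average. The points share mice, days and libraries, so no p is given. Lgr5 was most like Smoc2 (r = 0.797), Cdo1 (0.647) and Hhip (0.643). Ascl2 was most like Cdca7 (0.905), Gcat (0.903) and Tmem97 (0.884), and Axin2 like Cdca7 (0.903), Hopx (0.881) and Ccnb2 (0.866). The nearest gene was Scd2 for Lrig1 (0.926), E2f3 for Rnf43 (0.779), Tnrc6b for Znrf3 (0.840) and Adamts15 for Sox9 (0.837). Among the 8 genes, Ascl2 and Axin2 kept their likeness within rectum and within mid-colon (r = 0.849 and 0.915, 19 samples each). Lgr5 and Smoc2 gave r = 0.787 and 0.823, and Ascl2 and Sox9 showed next to none over the 38 samples (0.005).

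Other genes of the pathway were read from lists chosen together with the 8 genes. Of 6 tested genes among 15 further Wnt targets and feedback genes, 2 fell at day 3 in rectum and none rose, with 6.62% of all genes called. At day 6, 2 rose and 1 fell, with 48.7% of all genes called. The adhesion receptor gene Cd44 (0.90, adjusted p = 0.0485) and Zfp703 (0.35) were higher and the cyclin gene Ccnd1 lower (-0.89, adjusted p = 0.0176). The list's median was 0.09 against -0.27 for all genes. At day 9, 6 of 8 rose and none fell, with 53.5% of all genes called. The largest rises were Cd44, at 69.3 ± 5.1 against 4.75 ± 0.56 TPM, and Ccnd1, at 56.5 ± 20 against 7.55 ± 2.2. The part of leukocytes, whose markers were higher then, was not tested. Of the 8 genes, Lgr5, Smoc2 and Sox9 were below day 0 in each rectal sample of day 9. The means of Ascl2 and Axin2 were then at 149% and 133% of day 0. Those of Rnf43, Znrf3 and Lrig1 were at 94.2%, 89.6% and 75.1%.

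Of 14 further crypt base stem cell genes, 11 were tested at days 3 and 6 in rectum and 12 at day 9. At day 3, 4 fell and 1 rose, at day 6, 3 fell and 3 rose, and at day 9, 2 fell and 6 rose, where 6.62%, 48.7% and 53.5% of all genes were called. Cdca7, a Myc-responsive gene, was at 9.67 ± 1.2 TPM before injury and, on days 3, 6 and 9 in turn, at 2.87 ± 1.3, 1.88 ± 1.1 and 30.1 ± 9.8. Igfbp4, which stroma also makes, fell at day 3 (-0.74, adjusted p = 0.0158) and rose at day 6 (1.72, adjusted p = 0.00604) and day 9 (2.40, adjusted p = 9.96e-06). Of 3 genes used as markers of reserve stem cells, Tert was under the filter. Hopx, the one that was called, went from 24.6 ± 2.0 TPM before injury to 7.83 ± 0.78, 9.64 ± 2.7 and 50.0 ± 8.8 on the same days. Bmi1 was at 8.85 ± 2.7 TPM before injury and at 10.1 ± 1.0, 13.1 ± 3.1 and 15.1 ± 7.6, and was not called (adjusted p = 0.622, 0.0850 and 0.112).

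Receptors and transducers of the pathway in rectum fell at 12 of 18 and rose at 1 of 18 by day 6 (list median -0.72, against -0.27 for all genes, of which 48.7% were called). Lrp5 and Lrp6, the Wnt co-receptors, changed by -1.21 and -1.10 on the log2 scale (adjusted p = 0.00192 and 0.00119), and Lgr4, the R-spondin receptor of wider expression, was at 39.1 ± 9.5 against 79.9 ± 6.5 TPM (adjusted p = 0.00180). At day 9, 7 of 18 were lower and 2 higher, with 53.5% of all genes called. Lgr4 was then at 24.2 ± 5.8 TPM. Among ligands, the R-spondin gene Rspo3 was higher at day 6 (6.61 ± 1.2 against 1.95 ± 0.032 TPM, adjusted p = 0.000322) and at day 9 (7.62 ± 3.5, adjusted p = 0.00235), and no tested ligand of 5 fell at either day. The secreted inhibitor genes Sfrp1 and Sfrp2 were both higher at days 6 and 9, with Sfrp1 at 11.7 ± 5.7 and 13.4 ± 4.3 against 2.19 ± 0.26 TPM at day 0. Fibroblasts are a usual source of R-spondins and SFRPs, and the rise of their markers at these days is given above. Their part was not tested.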

How the data were processed

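RNA of 66 sections from 19 mice was read as single-end stranded mRNA libraries, per the labels' protocols. The authors deposited a table of abundances in TPM, a signal per transcript scaled to the same total of 1000000 in each library, made with kallisto after CASAVA, with build mm10, per the submitters' processing notes. The kallisto version, index and read depth were not given in the sources used here. Of 126860 table rows, 37344 had no values and 1318 were repeats. Of the other 88198 transcripts, 1284 had no gene identifier and were left out, and the rest were summed to 30452 genes.

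Tests used limma 3.58.1 (R 4.3.3) with a trended prior on log2(TPM + 1) of genes that reached 1 TPM in a number of samples no lower than the size of the smaller group, with Benjamini-Hochberg adjustment over all tested genes and a threshold of 0.05. Comparisons with neo-epithelium had day as a covariate. Within a section, p-values measure the spread between mice. In comparisons between sections, also of their responses, the main fits took sections of the same mouse as separate samples, without pairing. Tables, permutation tests and figures used Python 3.11.15, pandas 2.3.3, scipy 1.17.1 and matplotlib 3.10.9, and the fits were tested on simulated data. The exact permutation tests and the fit on protein-coding transcripts were chosen after seeing the data. Alternatives were TMM and epithelial scaling, a pseudocount of 0.1, no filter, a filter of 5 TPM, no prior trend, a fit over all 66 samples, the most abundant transcript, the mouse as replicate block and leaving out each mouse. Where leaving out a mouse lowered the size of the smaller group, the filter asked for fewer samples.

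Sections share mouse numbers because they come from the same animal, per the labels. Deviations of paired sections correlated at a mean of 0.052 (anus and rectum), 0.133 (rectum and mid-colon), 0.258 (neo-epithelium and rectum) and 0.157 (neo-epithelium and anus). The members and lists were chosen with earlier results of these data known. From other lists at most the 3 largest rises and 3 largest falls among called genes of at least 5 TPM are named, and for each member the 3 genes of highest correlation were ranked. The genes ranked for Smoc2 are not reported here.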

Additional observations from a re-analysis of the deposited data

Results flagged for a closer look

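Among 24 groups of 4 day 0 samples examined for a value far from the rest, of which chance marks about 1 in 20, 3 stood out. Mouse 4 held the highest Lgr5 in rectum (0.636 TPM), the lowest Smoc2 in rectum (3.60 TPM) and the lowest Lrig1 in mid-colon (4.90 TPM).

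In some genes every injured mouse lay on one side of the day 0 mean of log2(TPM + 1) in a colon section and on the other side in anus, and the difference was not tested in any of these cases. These cases were picked from the genes, sections and days compared, and how often chance gives such a pattern was not worked out. Values are the mean log2 change against day 0 in anus minus that in the colon section. For Smoc2 it was 1.85 at day 6 and 0.93 at day 9 against rectum and 1.65 at day 6 against mid-colon. The low anal value of day 0 mouse 1 (10.3 TPM) pulls that mean down: set against the mean TPM of day 0, mouse 9 at day 6 was at 93.5% and mouse 11 at day 9 at 99.3%. For Znrf3 it was 0.92, 0.55 and 0.64 against rectum at days 6, 14 and 20 and 0.63 against mid-colon at day 6. Axin2 gave -0.47 against rectum and -0.81 against mid-colon at day 9, and Lgr5 -0.46 against mid-colon at day 14.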

How the results depend on the processing

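No called change reversed under any alternative: of 1537 gene values under other settings 1479 stayed on the same side of the threshold, 33 lost and 25 gained a call, and of 1630 with a mouse left out 1548 stayed, 61 lost and 21 gained one. Among those that stayed, 135 values called in neither fit changed direction. The rectum made 11 calls against day 0, with 5 at a filter of 5 TPM, 6 from the most abundant transcript and 9 to 13 with a mouse left out. The mid-colon made 5, with 9 under epithelial scaling, 3 with no filter, 2 at 5 TPM, 2 from the most abundant transcript and 2 to 10 with a mouse left out. The anus made 0, and 1 in protein-coding transcripts. Between days, rectum made 4 calls (3 to 7 with a mouse left out) and mid-colon 6 (3 from the most abundant transcript). Anus against rectum gave 4, and 2 to 5 with a mouse left out. A filter of 5 TPM left 1 call for neo-epithelium against rectum, of 3, and 1 against anus, of 4. Neo-epithelium at day 20 against day 9 gave 2, with 1 at a pseudocount of 0.1, 0 with no filter, at 5 TPM, in the fit over 66 samples or from the most abundant transcript, and 0 to 2 with a mouse left out. The difference in response gave 0, with 1 under TMM and 0 to 1 with a mouse left out. The stricter filter tests fewer genes, and for the other settings the cause was not tested. With the mouse as replicate block the counts were 4 for anus against rectum, 0 for rectum against mid-colon, 3 and 4 for neo-epithelium against rectum and anus, and 0 for the difference in response, and beyond Znrf3 and Sox9 against anus no call changed. TPM keeps no depth, so the precision of values under 1 TPM is unknown.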
